A study of Mus musculus with 69 samples.

Results

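The genes described here are 39 that copy DNA in S phase or bring the cell into it. They were chosen by name from the licensing, helicase, polymerase, clamp, nucleotide supply, chromatin and G1/S functions. No measured value was a criterion. Earlier results of these data were known when the list was made, so the choice was not blind to them. Of the 39, 38 had a value on every array, out of 18660 genes tested. Rrm2, a subunit of ribonucleotide reductase, had no matching probe. The 38 genes were read by 47 probes.

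Before S phase, the origin recognition complex with Cdc6 and Cdt1 loads the Mcm helicase onto DNA, and Cdc45 and the GINS complex then activate it. Primase and the replicative polymerases copy each strand behind it, and the Pcna clamp tethers polymerases to DNA. E2F transcription factors, restrained by retinoblastoma-family pocket proteins until the G1 cyclins act, switch on many of these genes together. Most cells of the adult lung are not dividing, and in whole tissue these transcripts come mainly from the minority that are.

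The data were from lungs of female C57BL/6 mice that were 5 to 7 weeks old on delivery and were acclimatised for 1 to 3 weeks. Under anaesthesia each mouse received a single dose into the trachea of 18, 54 or 162 µg of one of 2 titanium dioxide nanomaterials, NRCWE-025 or NRCWE-030, or the vehicle alone, which was water with 2% serum. Lungs were taken on day 1 or day 28, and the vehicle group of each day served as the control for both materials. Each of the 69 arrays carried the RNA of 1 mouse, so the 14 groups held 5 mice each, except NRCWE-025 at 162 µg on day 28, which had 4.

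Each array compared lung RNA, labelled with Cy5, with a commercial pool of RNA from mouse cell lines, labelled with Cy3, and the dyes were not swapped. A level is the log2 of lung signal over reference signal, and a log2 change is the difference between 2 groups of such levels. Between 49.1% and 72.8% of spots were well above background in the lung channel. Markers of the alveolar type 2 cell, the surfactant-producing cell of the lung, were measured for 6 of 6 genes and stood high, with group means of their median from 4.84 to 5.13 above the reference. The 38 replication genes lay on the other side of the reference, from -3.52 for Cdt1 to -0.20 for Prim2, with a median of -2.30. Among them, 34 were well above background on 69 of 69 arrays, Pole2 on 67, Orc1 on 30, Cdc45 on 25 and Ccne2 on 2. For 1 array, NRCWE-030 18 µg day 28 replicate 5, the scanner readout correlated with the authors' own normalized values at 0.9218, and those values correlated at 0.9701 with the readout of another array. The other 68 arrays correlated with their own values at 0.9945 or higher. Without that array, the day 28 counts of called genes at 162 µg of NRCWE-030, in its dose F-test and between materials were the same. The counts at 18 and 54 µg of NRCWE-030 on day 28 were not taken again without it. Day 1 and day 28 arrays lay on different slides apart from that array, so day and slide cannot be told apart between the vehicle groups. In whole lung, a change in the number of cells of a type and a change in RNA per cell cannot be told apart.

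The promoter windows of these genes are shown first, because the genes were compared as one set and E2F-type sites are the feature that such genes are known for. Windows ran from 250 bases before to 50 bases after the start of the gene, taken from RefSeq on the GRCm38.p6 build, and 33 of the 39 genes had at least 1. The motif searched was any of TTTCCCGC, TTTCGCGC, TTTGCCGC or TTTGGCGC on either strand, with overlapping matches allowed. It was found for 13 of the 33 genes (39.4%), against 704 of 27025 genes with a window (2.60%). The 13 were Orc1, Cdc6, Cdt1, Mcm3, Mcm5, Mcm6, Mcm7, Pola1, Pold1, Pole2, Rfc3, Lig1 and Uhrf1. The letters CCAAT stood in the windows of 18 of the 33 genes (54.5%) and of 11096 of the 27025 (41.1%). The promoters of Mcm6, Mcm5, Uhrf1 and Pcna are printed to show the range from several matches to none, each as the 250 bases before the start, 5′ to 3′ on the strand of the gene, with E2F-type matches in capitals. The windows are Mcm6 (chr1:128359706-128359955, minus strand), with overlapping matches at -110 and -106 from the start and one more at -47, Mcm5 (chr8:75109259-75109508, plus strand), with overlapping matches at -153 and -149, the downstream start of Uhrf1 (chr17:56304063-56304312, plus strand), with a match at -185, and Pcna (chr2:132253181-132253430, minus strand), which has none in its window.
Mcm6: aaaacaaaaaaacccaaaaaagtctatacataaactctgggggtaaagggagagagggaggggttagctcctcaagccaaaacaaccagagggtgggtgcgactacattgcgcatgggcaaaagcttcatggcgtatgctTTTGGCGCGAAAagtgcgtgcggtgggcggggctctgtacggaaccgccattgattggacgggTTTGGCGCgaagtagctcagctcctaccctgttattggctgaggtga
Mcm5: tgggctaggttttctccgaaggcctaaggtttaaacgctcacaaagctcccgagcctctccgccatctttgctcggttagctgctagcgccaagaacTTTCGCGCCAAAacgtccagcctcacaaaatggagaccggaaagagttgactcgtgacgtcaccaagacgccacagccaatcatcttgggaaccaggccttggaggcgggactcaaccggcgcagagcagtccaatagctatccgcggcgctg
Uhrf1: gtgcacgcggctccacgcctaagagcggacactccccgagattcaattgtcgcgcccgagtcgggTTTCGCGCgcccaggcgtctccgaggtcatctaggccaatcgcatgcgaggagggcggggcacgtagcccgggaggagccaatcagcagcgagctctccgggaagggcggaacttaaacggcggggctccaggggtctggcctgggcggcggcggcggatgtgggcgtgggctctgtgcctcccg
Pcna: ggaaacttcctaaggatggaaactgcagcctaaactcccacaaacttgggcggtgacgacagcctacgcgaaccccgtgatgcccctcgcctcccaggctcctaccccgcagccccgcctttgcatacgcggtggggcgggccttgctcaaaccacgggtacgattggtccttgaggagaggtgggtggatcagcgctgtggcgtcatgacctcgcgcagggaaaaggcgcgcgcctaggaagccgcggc
Mcm3 and Cdt1, 2 other genes that the results turn on, held their matches after the start, at positions 19 and 38 for Mcm3 and 32 for Cdt1. Fen1 and Chaf1b had no match in their windows. A match of letters says nothing of whether a factor is bound.

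On day 1 at 162 µg, 6 of the 38 replication genes passed the limma test (adjusted p under 0.05) with NRCWE-030, all higher. With NRCWE-025, 0 of the 38 passed. Over all genes, 1.69% passed with NRCWE-030 and 0.209% with NRCWE-025. Compared directly at this dose, the materials differed for 0 of the 38 genes (smallest limma adjusted p = 0.67). All 6 passes were lost with the arrays scaled to equal spread. They were also lost when the fit held a fixed term for each slide, or for each day of scanning. The fitted log2 change was above 0 for 38 of 38 genes after NRCWE-025, with a median of 0.35, and for 38 of 38 after NRCWE-030, with a median of 0.43, but with the arrays scaled to equal spread the numbers above 0 were 29 and 34 of 38 and the medians 0.11 and 0.23. Across all 18660 genes, the median change was 0.000 and 0.005 and the share above 0 was 50.0% and 51.3%. The fitted changes reached from 0.05 for Pola1 to 0.94 for Uhrf1 with NRCWE-025, and from 0.05 for Rfc3 to 1.22 for Uhrf1 with NRCWE-030.

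The median level over the 38 genes was -2.27, -2.21, -2.57, -2.58 and -2.13 on the 5 vehicle arrays of day 1. It was -2.11, -2.02, -2.19, -1.69 and -1.60 after 162 µg of NRCWE-025. It was -1.76, -1.92, -1.94, -1.93 and -1.72 after 162 µg of NRCWE-030. All 5 arrays of NRCWE-030 lay above all vehicle arrays, and they spread less (SD 0.11, n = 5) than the vehicle arrays (SD 0.21, n = 5). With NRCWE-025, replicates 4 and 5 were clearly above the vehicle arrays and the other 3 were near the upper vehicle values (SD 0.26, n = 5).

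**Figure D1:**
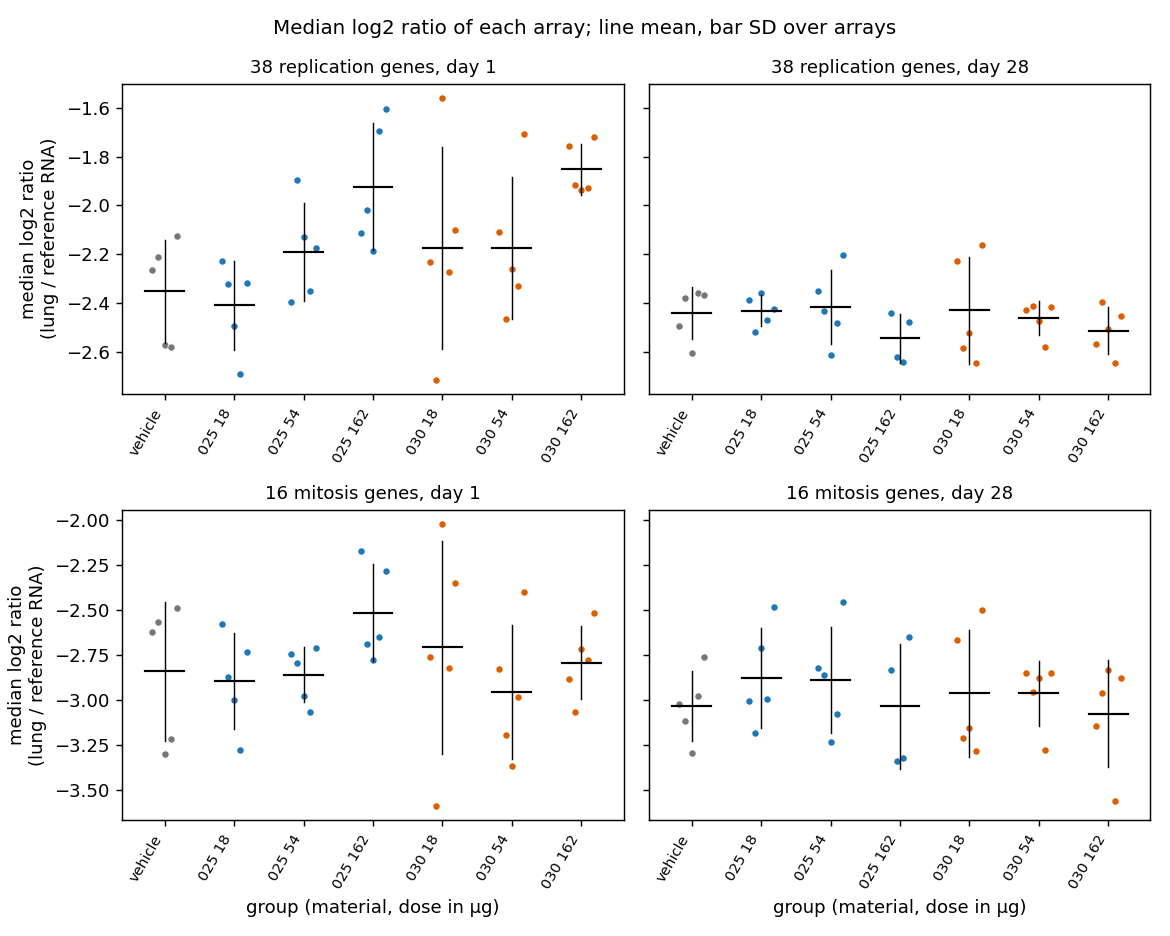
Median log2 ratio of lung over reference RNA across the 38 replication genes (top) and 16 mitosis genes (bottom) on each array, by group, on day 1 (left) and day 28 (right), with points for mice, lines for group means and bars for the SD. In the upper panels on day 1 the 162 µg groups sit at means of -1.92 (NRCWE-025) and -1.85 (NRCWE-030) against -2.35 for vehicle, and on day 28 the 162 µg means of -2.55 and -2.51 lie close to the vehicle mean of -2.44.

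Under limma with Benjamini-Hochberg adjustment over all genes, an adjusted p under 0.05 is called here. After 162 µg of NRCWE-030 on day 1, 6 of the 38 genes were called, all higher, where 1.69% of all genes were called and 1.22% were called higher. They were Mcm6, Pcna, Mcm3, Cdt1, Fen1 and Uhrf1. After 162 µg of NRCWE-025, 0 of the 38 were called, where 0.209% of all genes were, and 21 had an unadjusted p under 0.05, with Orc6 having the smallest adjusted p at 0.118. The number with an unadjusted p under 0.05 was 21 for NRCWE-030 too. Across all genes 12.3% and 12.9% had such a p. The dose F-test, which asks whether any of the 3 doses differs from vehicle, called 5 genes for NRCWE-030 on day 1 (Mcm6, Cdt1, Chaf1b, Mcm3 and Pcna), where 0.954% of all genes were called. For NRCWE-025 on day 1 it called 0 of the 38, where 0.0214% of all genes were called. In that F-test 21 of the 38 had an unadjusted p under 0.05. The share of all genes at that unadjusted p is not given, so this count has no background beside it.

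These calls depend on how the arrays are treated. With NRCWE-030 at 162 µg on day 1, 0 of the 38 were called with the arrays scaled to equal spread, with the slide as a fixed block or with the scan day as a fixed block, while the median changes were 0.23, 0.46 and 0.39 and the numbers above 0 were 34, 38 and 37. The median absolute log2 ratio of an array, a measure of its spread, was 0.34 ± 0.02 on vehicle arrays of day 1, 0.31 ± 0.03 with NRCWE-025 and 0.32 ± 0.03 with NRCWE-030 at 162 µg (SD, n = 5 each), and the part of this in the changes was not tested. The normalized ratios were also split back into a lung and a reference channel. Lung values of the probes of these genes changed by a median of 0.32 (NRCWE-025) and 0.35 (NRCWE-030), with 45 and 47 of 47 higher. Reference values changed by -0.01 and -0.03. Both channels were rebuilt from the same loess-corrected ratios, with average intensities made equal in distribution between arrays. The lung values are therefore not a measurement separate from the ratios.

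**Figure D2:**
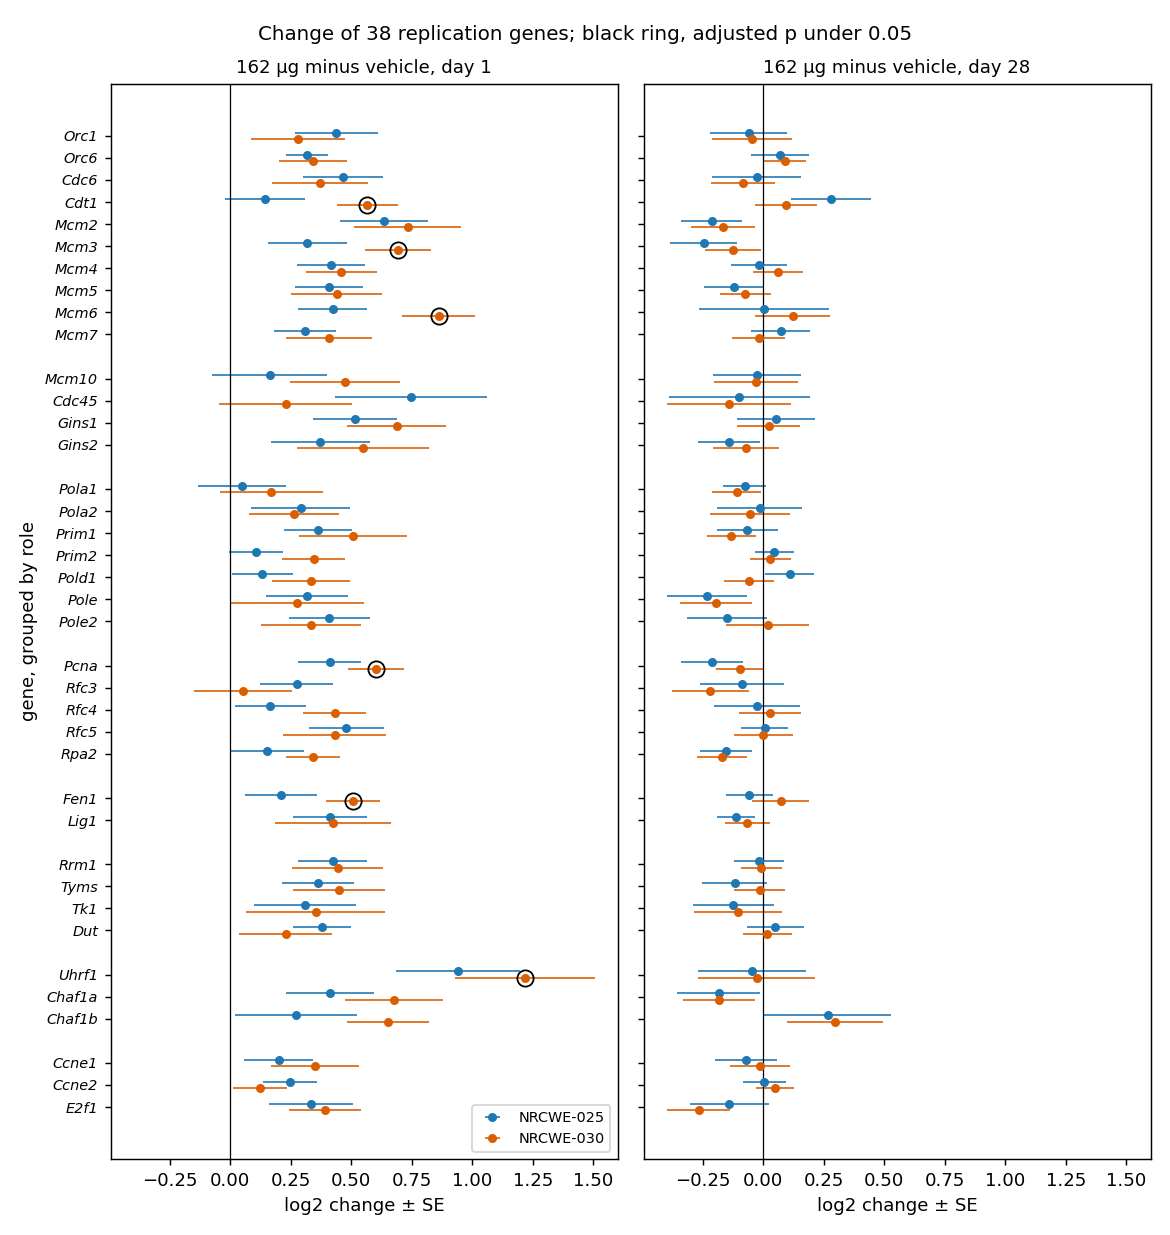
Log2 change at 162 µg against vehicle for each of the 38 replication genes, with bars for the SE, in rows by functional group, in blue for NRCWE-025 and orange for NRCWE-030, with day 1 on the left and day 28 on the right. Black rings mark the 6 genes with a limma adjusted p under 0.05, and all 38 points lie above 0 on day 1 with both materials, from 0.05 to 0.94 for NRCWE-025 and from 0.05 to 1.22 for NRCWE-030, while on day 28 they spread on both sides of 0.

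Origin licensing, the loading of the Mcm helicase, held 3 of the 6 called genes. Its 10 genes had a median change on day 1 of 0.41 at 162 µg with NRCWE-025 and 0.45 with NRCWE-030. Mcm6 is a subunit of the helicase ring. Its level was -2.14, -2.34, -2.60, -2.49 and -2.20 on the vehicle arrays of day 1 and -1.35, -1.66, -1.51, -1.52 and -1.42 after 162 µg of NRCWE-030. After 162 µg of NRCWE-025 it was -2.31, -1.99, -2.14, -1.72 and -1.49. The NRCWE-030 arrays lay above all vehicle arrays, and the NRCWE-025 arrays overlapped them at the low end. Mcm6 rose by 0.86 ± 0.15 (SE, n = 5 against 5), or 1.82-fold, with NRCWE-030 (limma adjusted p = 0.00549), and its change with NRCWE-025 was 0.42 ± 0.14 (limma adjusted p = 0.209).

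Mcm3, another subunit of the ring, stood at -2.69, -2.41, -2.77, -2.67 and -2.34 with vehicle and at -1.92, -2.11, -1.93, -1.86 and -1.60 with NRCWE-030. With NRCWE-025 it was -2.55, -2.43, -2.59, -2.07 and -1.65. It rose by 0.69 ± 0.14 with NRCWE-030 (limma adjusted p = 0.0118), without overlap, and with NRCWE-025 only replicates 4 and 5 were above the vehicle range. Cdt1, which brings the ring to origins and is degraded once S phase begins, was the lowest of the 38 against the reference, at -3.11, -3.19, -3.58, -3.69 and -3.41 with vehicle. It was -2.65, -2.92, -2.81, -3.01 and -2.75 with NRCWE-030, a rise of 0.57 ± 0.13 (limma adjusted p = 0.0241) without overlap. With NRCWE-025 it was -3.83, -3.07, -3.42, -3.03 and -2.89, and the fitted change was 0.14 ± 0.16, which fell below 0, to -0.29, with arrays scaled to equal spread.

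Mcm2, also in the ring, had the largest licensing change with NRCWE-025, at 0.64 ± 0.18 (limma adjusted p = 0.136), and 0.73 ± 0.22 with NRCWE-030 (limma adjusted p = 0.105). Its levels were -2.25, -2.32, -2.64, -2.80 and -2.23 with vehicle and -2.16, -2.01, -2.17, -1.39 and -1.33 with NRCWE-025. With NRCWE-030 they were -1.58, -1.87, -1.77, -1.71 and -1.66. Both treated groups lay above all vehicle arrays, and the gene was called with neither.

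Helicase activation comprised Cdc45, Mcm10, Gins1 and Gins2, whose median change was 0.44 with NRCWE-025 and 0.51 with NRCWE-030 at 162 µg on day 1, and 0 of 4 were called with either. Cdc45, part of the active helicase, was well above background on 2 of 5 arrays with NRCWE-025 and 2 of 5 vehicle arrays, and its fitted change was 0.75 ± 0.31 (limma adjusted p = 0.334). That value rests mostly on signal near background and leaned on 1 array, replicate 1 at -0.26, where the other 4 lay between -2.28 and -1.42, and without it the change was 0.43. Gins1, a GINS subunit, led with NRCWE-030 at 0.69 ± 0.20 (limma adjusted p = 0.101), and its 2 probes gave 0.50 and 0.88.

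Polymerase and primase genes had medians over 7 genes of 0.29 and 0.33, and 0 of 7 were called with either material. Pole2, the second subunit of the leading-strand polymerase, led with NRCWE-025 at 0.41 ± 0.17 (limma adjusted p = 0.315). Prim1, the catalytic primase subunit, led with NRCWE-030 at 0.51 ± 0.22 (limma adjusted p = 0.326).

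The clamp, clamp loader and single-strand binding genes had medians over 5 genes of 0.28 with NRCWE-025 and 0.43 with NRCWE-030. Pcna, the sliding clamp that tethers polymerases to DNA, was at -2.10, -1.53, -1.87, -1.76 and -1.56 on vehicle arrays of day 1. It was -1.17, -1.26, -1.17, -1.10 and -1.12 after 162 µg of NRCWE-030 and -1.47, -1.49, -1.52, -1.16 and -1.13 after NRCWE-025. Both treated groups lay above all vehicle arrays, with the NRCWE-030 arrays within a narrow band. Pcna rose by 0.60 ± 0.12, or 1.52-fold, with NRCWE-030 (limma adjusted p = 0.0107), and its change with NRCWE-025 was 0.41 ± 0.13 (limma adjusted p = 0.176). Rfc5, a clamp loader subunit, had the largest change of the group with NRCWE-025, at 0.48 ± 0.15 (limma adjusted p = 0.184).

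Of the genes that mature Okazaki fragments, Fen1, the flap endonuclease, stood at -2.35, -2.29, -2.62, -2.22 and -1.97 with vehicle. It was -1.73, -1.90, -1.94, -1.77 and -1.59 with NRCWE-030, above all vehicle arrays, and rose by 0.51 ± 0.11 (limma adjusted p = 0.0241). With NRCWE-025 it was -2.29, -2.38, -2.15, -2.02 and -1.57 and overlapped the vehicle arrays, with a change of 0.21 ± 0.15 that became -0.04 with arrays scaled to equal spread. Lig1, the ligase that seals the fragments, had the larger change of the pair with NRCWE-025, at 0.41 ± 0.15 (limma adjusted p = 0.255).

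The 4 measured genes of deoxynucleotide supply had medians of 0.37 and 0.40, and 0 of 4 were called with either material. Rrm1, the large subunit of ribonucleotide reductase, led with NRCWE-025 at 0.42 ± 0.14 (limma adjusted p = 0.207). Tyms, which makes thymidylate, led with NRCWE-030 at 0.45 ± 0.19 (limma adjusted p = 0.306).

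Replication-coupled chromatin genes had the highest group median with NRCWE-030, 0.68 over 3 genes, against 0.41 with NRCWE-025. Uhrf1 recruits the maintenance DNA methyltransferase to newly copied DNA, and its changes were the largest of the 38 with both materials. Its level was -3.13, -2.72, -4.00, -3.94 and -3.53 on vehicle arrays and -2.00, -2.48, -2.41, -2.23 and -2.12 with NRCWE-030. With NRCWE-025 it was -2.88, -2.82, -3.10, -2.30 and -1.53. Vehicle arrays varied widely, the NRCWE-030 arrays were all above them, and NRCWE-025 overlapped in 3 of 5. Uhrf1 rose by 1.22 ± 0.29, or 2.32-fold, with NRCWE-030 (limma adjusted p = 0.0360), and changed by 0.94 ± 0.26 with NRCWE-025 (limma adjusted p = 0.120). Both of its probes were positive, at 1.08 and 1.35 for NRCWE-030.

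Chaf1b, a subunit of the assembly factor that places histones on new DNA, passed the dose F-test for NRCWE-030 on day 1 (limma adjusted p = 0.0235). Its levels were -2.83, -2.74, -2.82, -3.29 and -3.00 with vehicle and -1.88, -2.41, -2.35, -2.45 and -2.34 with NRCWE-030 at 162 µg. These groups did not overlap, and the change was 0.65 ± 0.17 (limma adjusted p = 0.0562). With NRCWE-025 it was -3.16, -2.09, -2.99, -2.59 and -2.48, spread through and above the vehicle range.

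Among the G1/S regulators E2f1, Ccne1 and Ccne2, 0 were called with either material. E2f1, an activating member of the E2F family, led with both, at 0.33 ± 0.17 with NRCWE-025 (limma adjusted p = 0.452) and 0.39 ± 0.15 with NRCWE-030 (limma adjusted p = 0.237). Ccne2, a cyclin of S phase entry, was well above background on 0 of 5 vehicle arrays of day 1 and 0 of 5 arrays with NRCWE-025 at 162 µg, so its fitted changes in the counts over 38 genes rest on signal near background. Ccne2 was well above background on 1 of 5 arrays with NRCWE-030 at 162 µg. Its mean lung signal over those 5 arrays was 1.11-fold that with vehicle. For this, each vehicle array was taken at the lowest signal well above background or at the probe's own signal, whichever was higher. Most of the treated arrays were themselves near background, so 1.11-fold is not a firm lower bound.

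**Figure D3:**
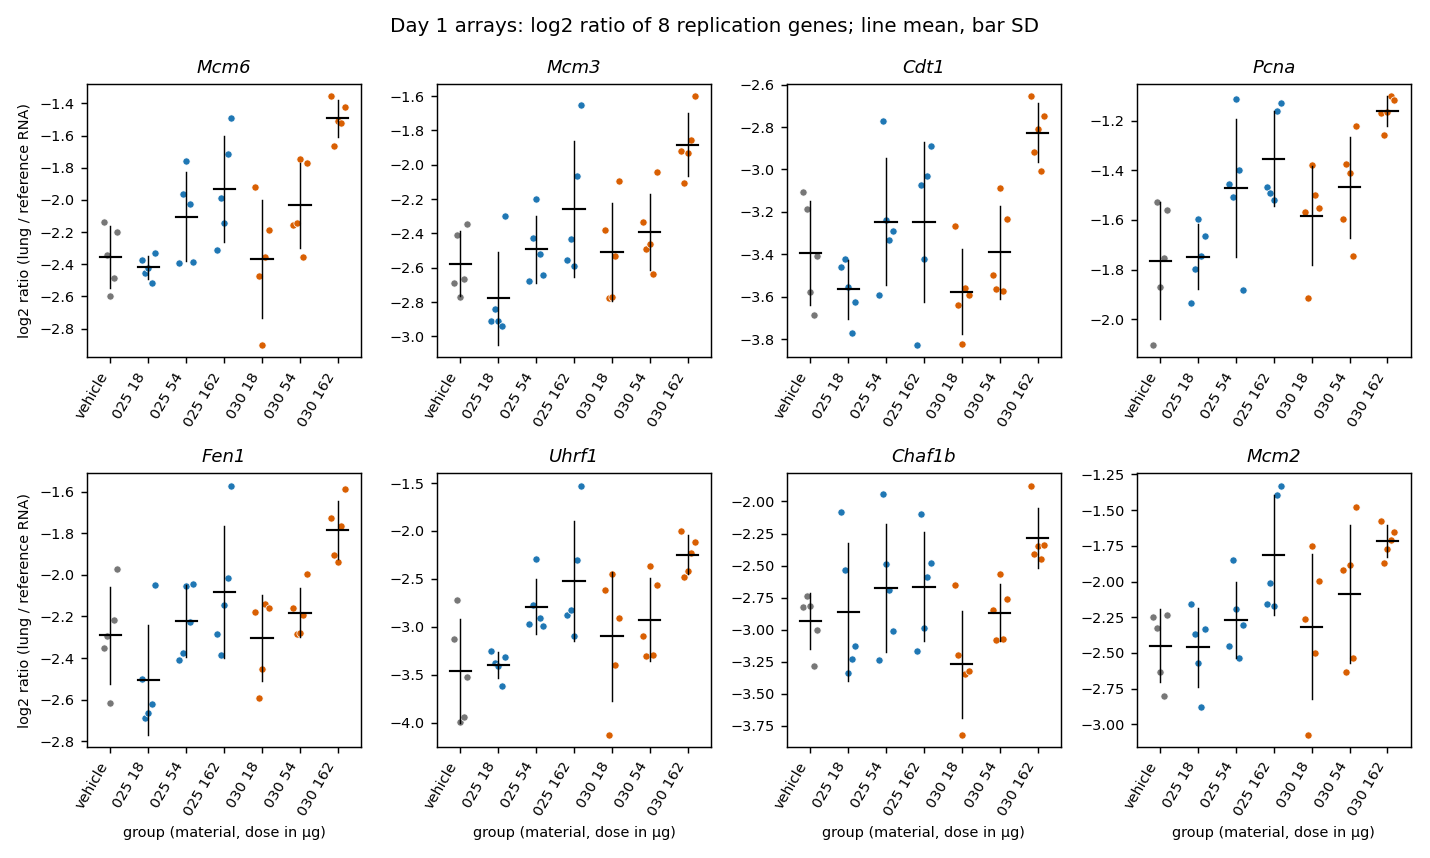
Log2 ratio of lung over reference RNA on each day 1 array for the 7 genes called in at least 1 test (Mcm6, Mcm3, Cdt1, Pcna, Fen1, Uhrf1 and Chaf1b) and for Mcm2, by group (vehicle, then each material with its dose in µg), with points for mice, lines for means and bars for the SD. The 5 arrays of NRCWE-030 at 162 µg lie above the 5 vehicle arrays for all 8 genes, and those of NRCWE-025 at 162 µg do so for Pcna and Mcm2.

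Groups that do not overlap give a view without a fitted model, but of the same loess-corrected ratios. The separation was not taken again with arrays scaled to equal spread. At 162 µg on day 1, 16 of the 38 genes had all 5 NRCWE-030 arrays above all 5 vehicle arrays, where 2.90% of all genes did. They were Cdt1, Chaf1b, Fen1, Gins1, Mcm2, Mcm3, Mcm5, Mcm6, Mcm7, Orc6, Pcna, Prim1, Prim2, Rfc5, Rrm1 and Uhrf1. With NRCWE-025 the genes were 2, Mcm2 and Pcna, where 0.874% of all genes did. At the other doses of day 1 and at all doses on day 28, 0 of the 38 were separated from vehicle in either direction, where from 0.386% to 1.22% of all genes were separated above and from 0.338% to 1.22% below, so that a count of 0 is near this background.

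Few slides held both a 162 µg array and a vehicle array of day 1, and each that did held 1 of each. Within such slides the median difference over the 38 genes was 0.09 and 0.40 with NRCWE-025, with 23 and 37 of 38 higher. With NRCWE-030 it was 0.75 and 0.26, with 38 and 35 of 38 higher. On the same slides NRCWE-025 gave -0.12 and 0.15 at 18 µg, and -0.07 and 0.45 at 54 µg. NRCWE-030 gave 0.36 and 0.56 at 18 µg, and 0.12 and 0.43 at 54 µg, and -0.045 at 54 µg on a slide without 162 µg. The differences within slides thus did not always grow with dose.

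At the lower doses on day 1, the median fitted changes were small, although some differences within slides were as large as some at 162 µg. With NRCWE-025 the median was -0.07 at 18 µg, with 9 of 38 above 0, and 0.09 at 54 µg, with 29 of 38 above 0. With NRCWE-030 it was 0.12 at 18 µg, with 30 of 38, and 0.10 at 54 µg, with 32 of 38. Genes called numbered 0 of 38 in each of these 4 comparisons, where 0%, 0%, 0.00536% and 0.0804% of all genes were called (NRCWE-025 at 18 and 54 µg, then NRCWE-030 at 18 and 54 µg). At an unadjusted p under 0.05 they numbered 0, 4, 0 and 3, where 5.12%, 6.53%, 7.30% and 8.76% of all genes had such a p. Single mice varied. At 18 µg of NRCWE-030, the median level was -2.72 on replicate 2 and -1.56 on replicate 3, the latter above each of the 162 µg arrays.

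**Figure D4:**
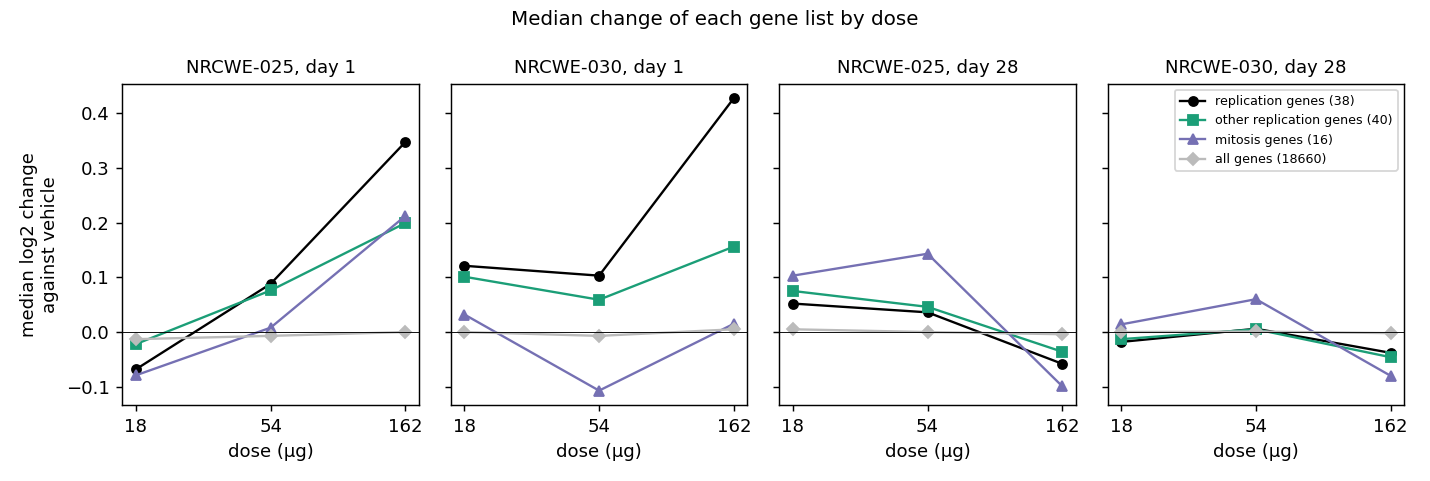
Median fitted log2 change against vehicle at 18, 54 and 162 µg, by material and day, for the 38 replication genes (black), 40 other replication genes (green), 16 mitosis genes (purple) and all genes tested (grey), without error bars because each point is a median over genes. On day 1 the black line goes from -0.07 to 0.09 to 0.35 for NRCWE-025 and from 0.12 to 0.10 to 0.43 for NRCWE-030, and on day 28 it stays between -0.06 and 0.05.

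The 2 materials were compared at the same doses and days in 1 fit of all groups. An F-test over the 3 doses called 0 of the 38 genes on day 1 and 0 on day 28, where 0.155% and 0.241% of all genes were called. In it 3 and 0 of the 38 had an unadjusted p under 0.05, and the matching share of all genes is not given. At 162 µg on day 1, NRCWE-030 was above NRCWE-025 for 28 of 38 genes, with a median difference of 0.10. Single genes ranged from -0.52 for Cdc45 to 0.44 for Mcm6, and their 95% intervals reached from -1.13 to 0.86. The difference was 0.42 ± 0.15 for Cdt1, 0.44 ± 0.20 for Mcm6, 0.38 ± 0.14 for Mcm3, 0.30 ± 0.12 for Fen1 and 0.24 ± 0.11 for Prim2. These were the 5 of 38 with an unadjusted p under 0.05, where 6.13% of all genes had such a p. The smallest limma adjusted p over the 38 genes was 0.670. These intervals are wide enough that the materials can be called neither different nor alike for these genes.

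By day 28 the 38 genes were spread around the vehicle level. At 162 µg the median change was -0.06 with NRCWE-025, with 11 of 38 above 0, and -0.04 with NRCWE-030, with 13 of 38 above 0, though with arrays scaled to equal spread the latter became 0.05 with 29 of 38, and it was also above 0 with the slide (0.05, 26 of 38) or the scan day (0.06, 26 of 38) as a fixed block and with the scanner's own log ratio (0.01, 22 of 38). Genes called numbered 0 of 38 at each dose of each material. The shares of all genes called were 0.0589%, 0.0268% and 0.0161% at 18, 54 and 162 µg of NRCWE-025 and 0.118%, 0.0536% and 0.0965% for NRCWE-030. At an unadjusted p under 0.05 there were 2, 1 and 0 of the 38 with NRCWE-025 and 2, 2 and 0 with NRCWE-030, where the shares of all genes were 8.89%, 7.07% and 7.23%, and 9.02%, 6.52% and 7.51%. The dose F-test called 0 with both materials and had 0 at an unadjusted p under 0.05, where 0.0268% (NRCWE-025) and 0.102% (NRCWE-030) of all genes were called.

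The largest changes in each functional group on day 28 at 162 µg were of either sign. With NRCWE-025 they were 0.28 ± 0.17 for Cdt1, -0.14 ± 0.13 for Gins2, -0.23 ± 0.17 for Pole, the catalytic subunit of the leading-strand polymerase, and -0.21 ± 0.13 for Pcna. The others were -0.11 ± 0.08 for Lig1, -0.12 ± 0.17 for Tk1, the thymidine salvage kinase, 0.27 ± 0.26 for Chaf1b and -0.14 ± 0.16 for E2f1. With NRCWE-030 they ran from -0.27 ± 0.13 for E2f1 to 0.30 ± 0.20 for Chaf1b. The smallest limma adjusted p among these was 0.673.

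The change between days was tested as the 162 µg effect on day 1 minus that on day 28. For NRCWE-030 it was above 0 for 38 of 38 genes, with a median of 0.45, and 1 gene was called, Pcna, where 0.198% of all genes were, with 21 of the 38 and 7.66% of all genes at an unadjusted p under 0.05. For NRCWE-025 it was above 0 for 37 of 38, with a median of 0.43, and 0 were called, with 11 of the 38 and 10.5% of all genes at an unadjusted p under 0.05, where 0.0589% of all genes were called. Pcna levels on day 28 were -1.43, -1.46, -1.74, -1.47 and -1.32 with vehicle and -1.61, -1.57, -1.49, -1.69 and -1.56 after 162 µg of NRCWE-030. After NRCWE-025 they were -1.79, -1.66, -1.58 and -1.75. The treated arrays lay within or below the vehicle range, where on day 1 they had been above it. The day difference for Pcna was 0.70 ± 0.17 with NRCWE-030 (limma adjusted p = 0.0498) and 0.62 ± 0.17 with NRCWE-025 (limma adjusted p = 0.125). The call sits at the threshold. Leaving out 1 array at a time gave from 0 to 2 called genes, and the count changed in 52 of 69 such fits, mostly to 0. Vehicle Pcna itself was 0.28 ± 0.12 higher on day 28 than on day 1 (limma adjusted p = 0.487), which enters this difference.

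Between the vehicle groups alone, day 28 was below day 1 for 33 of 38 genes, with a median of -0.12, and 0 were called, where 0.0375% of all genes were. At an unadjusted p under 0.05 there were 5, where 8.51% of all genes had such a p. Of these 5, Cdt1 (-0.47), Mcm10 (-0.50), Pola1 (-0.32) and Pold1 (-0.26) were lower and Pcna higher.

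Other genes of the cell cycle give the setting of these values. Of 40 further replication genes measured, 36 were above 0 at 162 µg on day 1 with NRCWE-025, with a median of 0.20 and 0 called (14 at an unadjusted p under 0.05), and 38 with NRCWE-030, with a median of 0.16 and 2 called, while with arrays scaled to equal spread 28 and 27 were above 0, with medians of 0.05 and 0.09. The 2 were Tipin, part of the fork protection complex, which rose by 0.37 ± 0.08 (limma adjusted p = 0.0215, and 0.353 with that scaling), and E2f2, an E2F family activator, which fell by 0.59 on the log2 scale (SE 0.10, limma adjusted p = 0.00502). Of 9 inhibitors of S phase entry and pocket proteins, 5 and 4 were above 0, with medians of 0.003 and -0.09, which turned to -0.07 and 0.005 with that scaling. Cdkn1b, the cyclin-dependent kinase inhibitor p27, fell by 0.47 with NRCWE-030 (SE 0.10, limma adjusted p = 0.0205), and it was the 1 gene of that list called.

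Genes of mitosis were measured as a separate list of 16. At 162 µg on day 1, 14 of the 16 were above 0 with NRCWE-025, with a median of 0.21, and 9 of the 16 with NRCWE-030, with a median of 0.02, but with arrays scaled to equal spread the numbers were 8 and 1 and the medians -0.09 and -0.23. Called genes numbered 0 with both, and 3 and 0 had an unadjusted p under 0.05. Values were 0.12 and 0.23 for Mki67, the proliferation marker, 0.39 and 0.09 for Top2a, which untangles copied chromosomes, and 0.43 and 0.20 for Ccna2, the cyclin of S phase and G2 (NRCWE-025, then NRCWE-030). E2F-type letters stood in 1 of 14 mitosis promoters (7.14%) and CCAAT in 12 of 14 (85.7%), where the other replication genes had 13 of 33 (39.4%) and 20 of 33 (60.6%).

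Markers of other cells moved as well on day 1 at 162 µg, and their part in the replication values was not tested. Median changes with NRCWE-025 and NRCWE-030 were -0.28 and -0.40 for alveolar type 1, -0.19 and -0.16 for alveolar type 2, -0.35 and -0.34 for club and ciliated, -0.11 and -0.20 for endothelial, 0.10 and 0.23 for macrophage, -0.15 and -0.16 for T lymphocyte, -0.25 and -0.13 for B lymphocyte and 0.05 and -0.003 for thymus and early lymphoid genes. With arrays scaled to equal spread, those for alveolar type 2 genes (0.33 and 0.24) and endothelial genes (0.45 and 0.25) turned to above 0, and that for alveolar type 1 genes did so with NRCWE-025 (0.32). Neutrophil genes had median changes of -0.05 and 0.30 (0.39 and 0.51 with that scaling), and 1 of 5 was called. This was Csf3r, the granulocyte colony-stimulating factor receptor, which rose by 1.25 ± 0.20 with NRCWE-030 (limma adjusted p = 0.00262). The array medians of the list overlapped, at 2.14 to 3.31 with NRCWE-030 and 2.26 to 3.37 with vehicle. Their mean was lower with NRCWE-030 (2.58) than with vehicle (2.80), the other way from the median change of 0.30. Erythroid genes had 0.05 and -0.31, with Hba-a1, an alpha globin gene, called at a change of -0.65 ± 0.14 with NRCWE-030 (limma adjusted p = 0.0207), a call lost with that scaling (-0.11). The calls of Tipin, E2f2, Cdkn1b, Csf3r and Hba-a1 were all lost with the slide as a fixed block, where the changes were 0.32, -0.59, -0.28, 0.87 and -0.59, and Csf3r was at 0.30 and not called with the scanner's own log ratio. Heart muscle genes had median changes of -1.43 and -0.48 and fat genes -0.85 and -0.62. Heart muscle levels ranged from 0.44 to 4.92 on the vehicle arrays, with the highest on replicate 2, from 0.21 to 0.67 with NRCWE-025 and from 0.27 to 3.21 with NRCWE-030. Without vehicle replicate 2, the median change of the 38 replication genes was 0.39 with NRCWE-025 and 0.48 with NRCWE-030, and the genes called were 0 and 5.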

How the data were processed

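RNA from 1 lung section per mouse was measured on 69 two-colour Agilent arrays, read by the authors with Agilent Feature Extraction 11.0.1.1. The deposited scanner tables hold the intensity of each spot and its local background in both channels, which are not normalized between arrays, flags (other) for spots, and a log10 ratio of Cy5 over Cy3 from the scanner software. The authors also deposited normalized log2 values, used here as an alternative. Probes were named through RefSeq accessions (27484 of 41174 probes). Local backgrounds marked as outliers were replaced by the array median, and background was corrected by normexp (offset 50), followed by loess within arrays. Medians were taken over spots and probes of a gene. Group differences were fitted with limma 3.58.1 in R 4.3.3, for vehicle and 3 doses of a material and day, or for all 14 groups for materials and days, with Benjamini-Hochberg adjustment over 18660 genes and a threshold of 0.05. Saturated spots numbered 0, and the number of arrays limits the precision. The group fit was tested on simulated log2 ratios, drawn independently for each gene with no slide, scan day or array effect. That test does not cover the normalization, the blocks, or changes as small as most of those reported here. Plots used Python 3.11.15 and matplotlib 3.10.9. Replicate numbers follow deposition order and are only names. Genes named singly are those called in any test and, in each functional group, the gene with the largest change at 162 µg, and of the other lists those called. The replication genes and all lists were chosen with earlier results of these data known. Mki67, Top2a, Ccna2 and the genes in between-material comparisons or in the vehicle comparison were named after their values were seen. Alternatives covered background, scaling, values, probes, filter, slide and scan day, the fit, and leaving out each array.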

Additional observations from a re-analysis of the deposited data

Results flagged for a closer look

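Dixon's test for a sample far from its group was applied to 112 sets of values of the 7 genes called and of the median over the replication genes, and chance marks about 1 in 20 of such sets. It marked 5. Cdt1 stood at -4.01 and Chaf1b at -3.93 on NRCWE-030 18 µg day 28 replicate 5, the array whose scanner readout did not match its deposited values, against nearest values of -3.61 and -3.18. Chaf1b was at -4.19 on NRCWE-025 54 µg day 28 replicate 5 (nearest -3.35) and at -1.88 on NRCWE-030 162 µg day 1 replicate 1 (nearest -2.34). Mcm3 was at -2.30 on NRCWE-025 18 µg day 1 replicate 5 (nearest -2.84). The difference of the 162 µg effect between day 1 and day 28 passed the limma interaction test for Pcna with NRCWE-030, at 0.70 (adjusted p = 0.0498). This call was lost in most fits with 1 array left out.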

How the results depend on the processing

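No paired analysis was possible because the labels give no replicate numbers shared between groups, and slide and scan day served as blocks instead. At 162 µg with NRCWE-030 on day 1, the 6 called genes became 12 with the scanner log ratio, 10 with all 14 groups in 1 fit, and 0 with scaling between arrays (median change 0.233), the slide or the scan day as a fixed block. They were 3 without NRCWE-030 162 µg replicate 1 or 5 or vehicle replicate 3, and up to 8 without other arrays. The 5 genes of the dose F-test became 3 with the scanner log ratio or the series matrix values, 2 with the ordinary F-test, 0 with scaling or with a fixed block for slide or for scan day, and 1 to 6 when single arrays were left out, with 1 without NRCWE-030 162 µg replicate 1 or 5. For the day difference with NRCWE-030, the count of 1 became 0 with marked backgrounds not replaced, no background correction, series matrix values or scaling. It became 3 with the scanner log ratio, 2 with the slide as a random block, and 0 to 2, mostly 0, leaving out single arrays. With NRCWE-025 the counts of 0 became 1 at 162 µg on day 1 with the slide as a random block, and 2 (slide fixed), 1 (slide random) and 1 (scan day) for the day difference. The vehicle comparison gave 1 with the slide as a fixed block. In that fit day 1 and day 28 are linked only through NRCWE-030 18 µg day 28 replicate 5, whose readout did not match its deposited values. Mcm6, Mcm3 and Pcna at 162 µg of NRCWE-030 on day 1 were called in 20 of 20 fits with 1 array left out and in 8 of 11 other alternatives, Cdt1 in 16 and 7, Fen1 in 15 and 7, and Uhrf1 in 12 and 6. The cause of these differences was not tested.

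Values that changed sign were all uncalled, and those printed here are of genes followed singly. On day 1 with NRCWE-025, scaling gave Cdt1 -0.289, Chaf1b -0.101 and Fen1 -0.039, and a fixed slide block gave Cdt1 0 to 3 decimals. Scaling on day 1 also put Mcm10, Pola1, Pold1, Pole, Prim1 and Rfc4 below 0 with NRCWE-025. With NRCWE-030 it did so for Dut, Pola1, Pole and Rfc3. Other settings did so on day 1 for Pola1 and Pola2 (NRCWE-025) and for Rfc3 (NRCWE-030). On day 28 with NRCWE-030, the slide and the scan day as fixed blocks gave Cdc45 0.078 and 0.086, Mcm3 0.066 and 0.055, Tk1 0.051 and 0.062 (0.028 with scaling) and Uhrf1 0.212 and 0.209 (0.082 with the scanner log ratio, 0.123 with scaling, 0.056 with slide random). On day 28 with NRCWE-025, Mcm6 was -0.024 with the scanner log ratio, -0.049 with scaling, and -0.076 with slide and -0.076 with scan day as fixed blocks, and Uhrf1 was 0.021 with the scanner log ratio and 0.009 with the brightest probe. Leaving out single arrays gave Fen1 -0.115 to 0.003, Mcm6 -0.071 to 0.170 and Uhrf1 -0.241 to 0.060 with NRCWE-025, and Tk1 -0.237 to 0.036 and Uhrf1 -0.187 to 0.117 with NRCWE-030. Signal over background limits Ccne2, Cdc45 and Orc1, which were above background on 2, 25 and 30 of 69 arrays.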
